A study of Homo sapiens with 47 samples.

Results

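Occupancy was described at 10 genes, the AP-1 genes FOS, FOSB, FOSL1, FOSL2, JUN, JUNB, JUND and ATF3 together with the immediate early genes EGR1 and IER2, of 20090 protein-coding genes in the annotation. The 10 genes were chosen by name, not by a measured value, though with earlier results of these data known. For each gene, the peaks within 2 kb of any annotated transcription start site (TSS) were taken as promoter peaks, and peaks elsewhere in the gene body and up to 10 kb on both sides were listed separately. Chromatin came from Ishikawa cells, an endometrial carcinoma line, kept in hormone-depleted medium for at least 5 days and then transfected with plasmids for gRNAs and a dCas9 fusion. The fusion was dCas9-VP16(10x), which carries copies of the VP16 activation domain, or dCas9-p300(core), which carries the acetyltransferase core of p300. The gRNAs were Pool1, Pool2 or Pool3, each for estrogen receptor bound sites (ERBSs) near MMP17, CISH, FHL2 and HES2, an Adjacent pool for neighbouring regions, or control gRNAs for the IL1RN promoter. The label of the H3K27ac dCas9-VP16(10x) Adjacent replicate 1 names the IL1RN gRNAs as well. H3K27ac and RNA polymerase II (RNAPII) were each measured in 20 libraries, 2 for each fusion and gRNA pool. The HA tag of the fusion was measured in 7 libraries, 5 of dCas9-VP16(10x) and 2 of dCas9-p300(core), with ERBS (Pool1 to Pool3 together), Adjacent or IL1RN gRNAs. None of the gRNA pools is labelled for the 10 genes, and the nearest named target gene on the same chromosome is HES2, 52769740 bp from JUN. All groups received a dCas9 fusion, including the IL1RN controls, and cells without one were not analysed here.

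AP-1 is a dimer of basic leucine zipper (bZIP) proteins, made of a Fos family member (FOS, FOSB, FOSL1 or FOSL2) with a Jun family member (JUN, JUNB or JUND), or of Jun proteins alone. It binds the TPA response element and, with ATF partners such as ATF3, the closely related cyclic AMP response element. Immediate early genes are induced within minutes of a growth factor, stress or serum signal without new protein synthesis, largely through serum response factor at CArG boxes and through CREB and ATF proteins. H3K27ac marks active promoters and enhancers, and RNAPII accumulates just downstream of the TSS of active genes. Each value below is the fold enrichment of a peak over background that the authors deposited. A library without a peak lists no value, so absence means only that no peak passed the caller's threshold.

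The sequences just upstream of the genes are shown for the members whose elements are best known and for those that the results turn on. They were read from the hg19 genome, 5′ to 3′ on the strand of the gene, and span 325 to 26 bases upstream of the canonical TSS, or 324 to 25 bases for JUND. Capitals mark matches, on either strand, to TGACG, TGACGTCA, TGACATCA, the CArG box and TATAA. For ATF3, a stretch of 30 bases is shown, 97 to 68 bases upstream, since another ATF3 transcript starts in that interval.
FOS, chr14:75745206-75745505, plus strand: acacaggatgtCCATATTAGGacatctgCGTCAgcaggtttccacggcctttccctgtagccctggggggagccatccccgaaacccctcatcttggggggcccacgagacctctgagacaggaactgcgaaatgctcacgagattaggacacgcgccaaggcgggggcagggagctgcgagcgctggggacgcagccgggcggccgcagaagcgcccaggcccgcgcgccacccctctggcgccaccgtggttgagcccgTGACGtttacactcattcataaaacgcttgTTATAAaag
FOSB, chr19:45970929-45971228, plus strand: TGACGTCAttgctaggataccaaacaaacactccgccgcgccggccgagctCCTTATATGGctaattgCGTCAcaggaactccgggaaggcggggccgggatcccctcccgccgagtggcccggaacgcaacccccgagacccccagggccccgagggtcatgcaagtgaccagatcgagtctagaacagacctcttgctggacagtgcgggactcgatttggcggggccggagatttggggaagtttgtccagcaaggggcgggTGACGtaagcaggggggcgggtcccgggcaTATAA
JUN, chr1:59249745-59250044, minus strand: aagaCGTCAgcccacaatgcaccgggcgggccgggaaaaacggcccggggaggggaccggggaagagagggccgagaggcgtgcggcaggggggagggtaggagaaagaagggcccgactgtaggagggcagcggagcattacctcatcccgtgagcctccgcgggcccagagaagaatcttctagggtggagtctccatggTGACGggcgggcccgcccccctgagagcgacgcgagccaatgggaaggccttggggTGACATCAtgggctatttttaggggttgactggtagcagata
JUND, chr19:18392457-18392756, minus strand: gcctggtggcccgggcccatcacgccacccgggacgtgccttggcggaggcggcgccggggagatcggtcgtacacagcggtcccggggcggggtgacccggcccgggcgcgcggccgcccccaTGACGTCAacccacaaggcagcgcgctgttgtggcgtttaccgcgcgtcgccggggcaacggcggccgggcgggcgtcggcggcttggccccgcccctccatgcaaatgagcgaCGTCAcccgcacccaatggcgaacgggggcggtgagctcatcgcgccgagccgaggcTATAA
EGR1, chr5:137800843-137801142, plus strand: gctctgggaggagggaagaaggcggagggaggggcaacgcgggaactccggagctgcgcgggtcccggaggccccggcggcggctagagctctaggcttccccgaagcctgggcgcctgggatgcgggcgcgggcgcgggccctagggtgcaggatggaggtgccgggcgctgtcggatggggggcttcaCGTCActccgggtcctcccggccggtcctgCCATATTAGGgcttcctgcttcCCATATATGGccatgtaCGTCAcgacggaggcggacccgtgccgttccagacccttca
ATF3, chr1:212782006-212782035, plus strand: aatagcattaCGTCAgcctgggactggcaa

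Motifs were searched on both strands of the 400 bases upstream of the canonical TSS of 19811 genes. The CArG box was found upstream of 3 of the 10 members (FOS, FOSB and EGR1) and of 1.88% of all genes. EGR1 had 4 matches, at positions -380 to -371, -364 to -355, -105 to -96 and -83 to -74, while FOS had 1 at -314 to -305 and FOSB 1 at -274 to -265. The full cyclic AMP response element TGACGTCA was found upstream of FOSB (-325 to -318) and JUND (-200 to -193), and in 2.74% of all genes. Its variant TGACATCA was found only upstream of JUN among the members (-67 to -60), and in 2.38% of all genes. The shorter TGACG was found upstream of 10 of the 10 members and of 32.6% of all genes, and each TGACGTCA contains it on both strands. TGANTCA, a pattern with any middle base that includes the TPA response element, was found in none of the 10 windows and in 7.73% of all genes. The share of genes with the element itself was not computed. TATAA was found upstream of FOS, FOSB, JUNB, JUND and ATF3, against 24.3% of all genes, and 1 of the FOSB matches lies inside its CArG box. These matches are descriptions of the sequence, not of binding.

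The libraries differed in the number of peaks. The H3K27ac lists held 5322 to 32052 peaks with dCas9-VP16(10x) and 1805 to 24276 with dCas9-p300(core). The RNAPII lists held 16040 to 35589 and 18809 to 40755 peaks, and the HA lists 4783 to 30736 and 141 to 146. A promoter peak was present for 4.88 to 66.2% of protein-coding genes in the H3K27ac libraries and for 49.4 to 70.5% in the RNAPII libraries. Peak names in most libraries begin with a number, called the run here, and no label says what it stands for. For RNAPII, all 10 dCas9-p300(core) libraries carried the same run (run A here), and the dCas9-VP16(10x) libraries carried another (run B, 7 libraries) or none (3 libraries), so that fusion and run cannot be told apart. For H3K27ac, 5 dCas9-VP16(10x) and 6 dCas9-p300(core) libraries carried run A, and the others carried none. The library labelled H3K27ac dCas9-VP16(10x) Pool1 replicate 2 carries in its peak names a code that matches dCas9-p300(core), so its fusion is in doubt. Without it, 0 genes passed for H3K27ac between the fusions (limma), as with it. Markers of the labelled cell type were present: 7 of 7 epithelial markers (EPCAM, CDH1, KRT8, KRT18, KRT19, CLDN4 and ELF3) had an RNAPII promoter peak in 20 of 20 libraries, and so did 4 of the 5 endometrial and Muellerian markers (PAX8, ESR1, SOX17 and EMX2). COL1A1, a fibroblast marker, had an RNAPII promoter peak in 14 libraries. In a transfected bulk population, fewer cells with a mark and less of the mark per cell cannot be told apart.

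**Figure D1:**
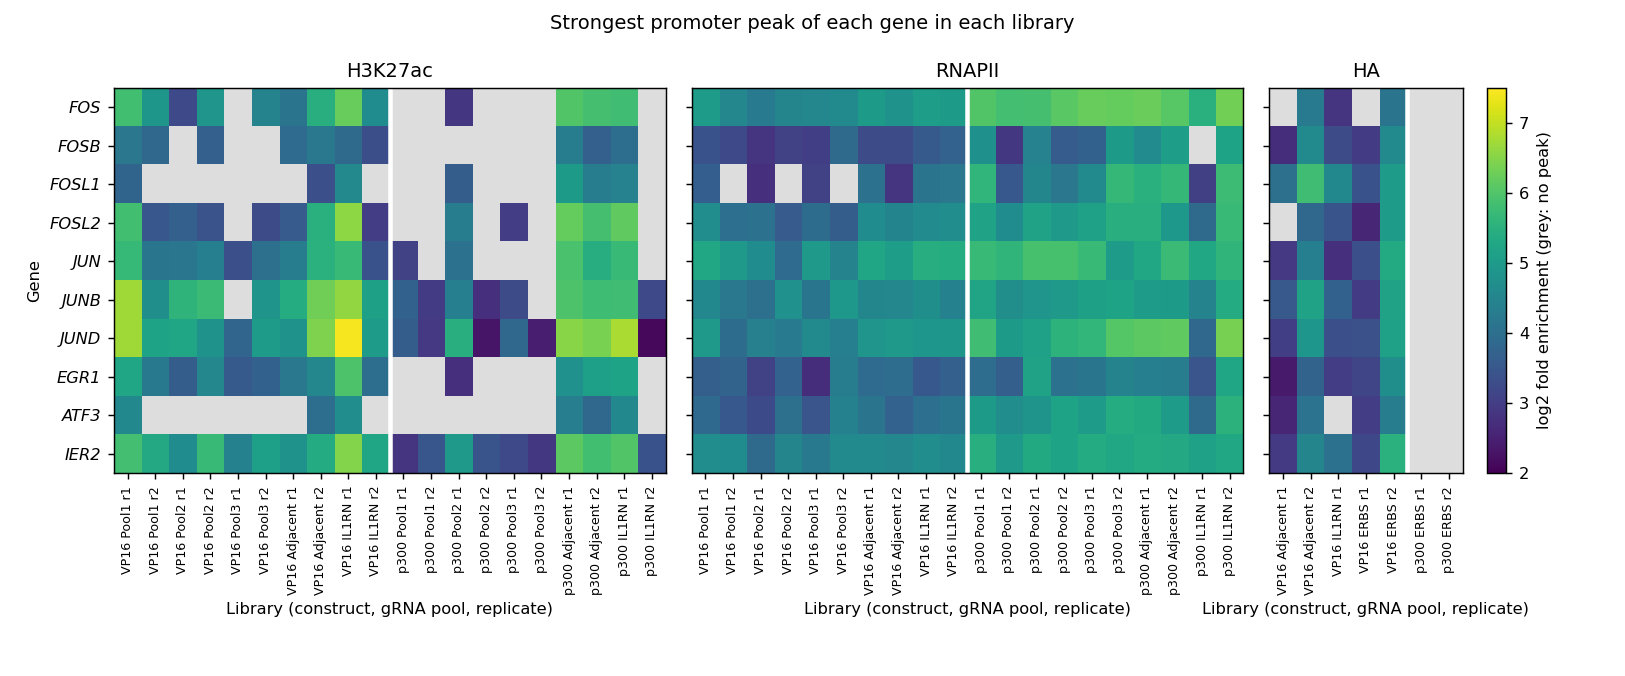
Log2 fold enrichment (colour) of the strongest promoter peak of each gene (rows) in each library (columns, by fusion, gRNA pool and replicate r1 or r2), with grey where no peak was listed and a white line between dCas9-VP16(10x) and dCas9-p300(core). RNAPII was found at 8 of the 10 genes in every library, whereas H3K27ac was found in every library only at JUND and IER2, and no gene had an HA peak with dCas9-p300(core).

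All 10 genes carried RNAPII at their promoters. FOS, JUN, JUNB, JUND, FOSL2, EGR1, ATF3 and IER2 had an RNAPII promoter peak in 20 of 20 libraries, FOSB in 19 and FOSL1 in 17. Across all protein-coding genes, 44.1% had such a peak in every library and the median gene had one in 18.0 libraries. The 3 libraries without FOSL1, which encodes the Fos protein Fra-1, were the 3 dCas9-VP16(10x) libraries with no run named, and the library without FOSB was dCas9-p300(core) IL1RN replicate 1, the one with the fewest RNAPII peaks of its fusion (18809). Among promoters with a peak, ranked by enrichment within each library, JUN stood at a median percentile of 99.0 (59.3 to 99.6 over libraries), FOS at 98.5 (85.3 to 99.9) and JUND at 97.7 (59.5 to 99.2). IER2, JUNB and FOSL2 followed at medians of 93.0, 90.4 and 88.1. ATF3, FOSL1, EGR1 and FOSB were lower, at medians of 74.9, 72.4, 46.6 and 32.8. The ranges of neighbours in this order overlapped.

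Among the 8 members with a peak in every library, FOS, the founding Fos protein, showed the largest RNAPII difference between the fusions in limma (log2). With dCas9-VP16(10x), its enrichment was 19.0 at the lowest, 26.2 at the median and 33.5 at the highest of 10 libraries. With dCas9-p300(core), it was 45.2, 67.8 and 80.8. Every dCas9-p300(core) library was above every dCas9-VP16(10x) library on this scale. The same held for IER2, at 15.0 to 26.002 with dCas9-VP16(10x) and 31.3 to 44.6 with dCas9-p300(core), and for none of the other 6 members with a peak in every library, where 1.18% of 8851 genes had groups apart on this scale. The dCas9-p300(core) libraries were higher over promoters in general, however, with a median log2 difference of -0.72 (dCas9-VP16(10x) minus dCas9-p300(core)) over 8851 genes with a peak in all 20 libraries, so each library was centred on its median over these genes. On the centred log2 scale, FOS was 0.48, 1.06 and 1.11 (lowest, median, highest) with dCas9-VP16(10x), and 1.07, 1.28 and 1.98 with dCas9-p300(core). The groups then overlapped, since the lowest dCas9-p300(core) library lay below the highest of dCas9-VP16(10x). Of the 8851 genes, 53 (0.599%) had centred groups that did not overlap, and 0 of the 8 members measured in all libraries were among them.

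In limma with Benjamini-Hochberg adjustment over the 8851 genes, RNAPII at FOS was lower with dCas9-VP16(10x) by a log2 difference of -0.58 (SE 0.15, adjusted p = 0.0179, n = 10 libraries per fusion). This difference cannot be told apart from the run in the peak names. ATF3, a stress-induced bZIP factor, was also lower, by -0.42 (SE 0.13, adjusted p = 0.0302). Its enrichment ran from 9.36 to 21.3 (median 15.4) with dCas9-VP16(10x) and from 14.9 to 46.1 (median 32.7) with dCas9-p300(core), and the groups overlapped. In the same comparison, 2 of the 7 epithelial markers were higher with dCas9-VP16(10x) and 0 lower, namely CLDN4 (1.53, SE 0.22, adjusted p = 0.00158 in limma) and ELF3 (0.90, SE 0.21, adjusted p = 0.0116 in limma), and their part in the members' differences was not tested. Among the members, 2 of 8 passed the threshold, both lower, where 18.4% of all genes passed it in either direction and 6.82% were lower. Over all genes, 1021 were higher and 604 lower, and without centring 18 were higher and 6635 lower. FOS kept its call when each of the 20 libraries was left out (largest adjusted p = 0.0498 in limma) and when the dCas9-VP16(10x) libraries with no run named were left out (-0.43, adjusted p = 0.0213 in limma). Its centred values fell in clusters, however. With dCas9-p300(core), IL1RN replicate 1, Pool1 replicate 2, Pool2 replicate 2 and Pool3 replicate 1 had 1.87 to 1.98. These libraries held 18809 to 25631 peaks, the fewest of that fusion, and its other libraries had 1.07 to 1.30. With dCas9-VP16(10x), FOS had 0.48 to 0.58 with no run named and 0.89 to 1.11 in run B. Leaving out 1 library at a time does not test for such clusters. By percentile rank, the FOS difference, at -4.6 points, did not pass (adjusted p = 0.293 in limma). That of ATF3, at -20.6 points, did pass (adjusted p = 0.0216 in limma). The ATF3 call was lost when any 1 of 10 libraries was left out, with limma adjusted p of 0.0503 to 0.0724. These were, for dCas9-p300(core), Adjacent replicate 1, Pool1 replicate 2, Pool2 replicate 2 and Pool3 replicate 1, and, for dCas9-VP16(10x), Adjacent replicate 2, IL1RN replicates 1 and 2, Pool1 replicate 2, Pool2 replicate 1 and Pool3 replicate 1.

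The other 6 members measured in all RNAPII libraries did not pass the test. JUNB, a Jun protein that often restrains JUN activity, had a log2 difference of 0.22 (SE 0.12, adjusted p = 0.225 in limma). JUND, the Jun protein with the steadiest expression, had -0.22 (SE 0.19) and JUN 0.09 (SE 0.24). FOSL2, which encodes Fra-2, had -0.09 (SE 0.17), EGR1, a zinc finger factor of the immediate early response, 0.08 (SE 0.12), and IER2, a short immediate early gene, -0.05 (SE 0.15). Without centring, JUN, JUNB and EGR1 turned to lower with dCas9-VP16(10x), as did most genes. Signs also changed in other fits, without passing. JUND was 0.04 and FOSL2 0.20 without the dCas9-VP16(10x) libraries of no run. With the sum of peaks, JUND was 0.62, FOSL2 0.11 and IER2 0.06. For JUN, the enrichment was 15.1, 32.6 and 43.1 (lowest, median, highest) with dCas9-VP16(10x) and 32.4, 50.3 and 59.5 with dCas9-p300(core), and the groups overlapped. For EGR1, it was 6.63, 13.0 and 19.7 against 10.9, 18.7 and 37.3, also with overlap. FOSL1 and FOSB lacked a peak in some libraries and were fitted only with missing values left out, where FOSL1 had a log2 difference of -0.47 (SE 0.21, adjusted p = 0.109 in limma) and FOSB -0.21 (SE 0.14, adjusted p = 0.273 in limma). By presence of the peak, FOSL1 was found in 7 of 10 dCas9-VP16(10x) and 10 of 10 dCas9-p300(core) libraries (Fisher's exact test, two-sided, p = 0.211, adjusted p = 0.588). Of 5926 genes tested for presence, 2.99% passed, and 0 of the 2 members tested did.

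**Figure D2:**
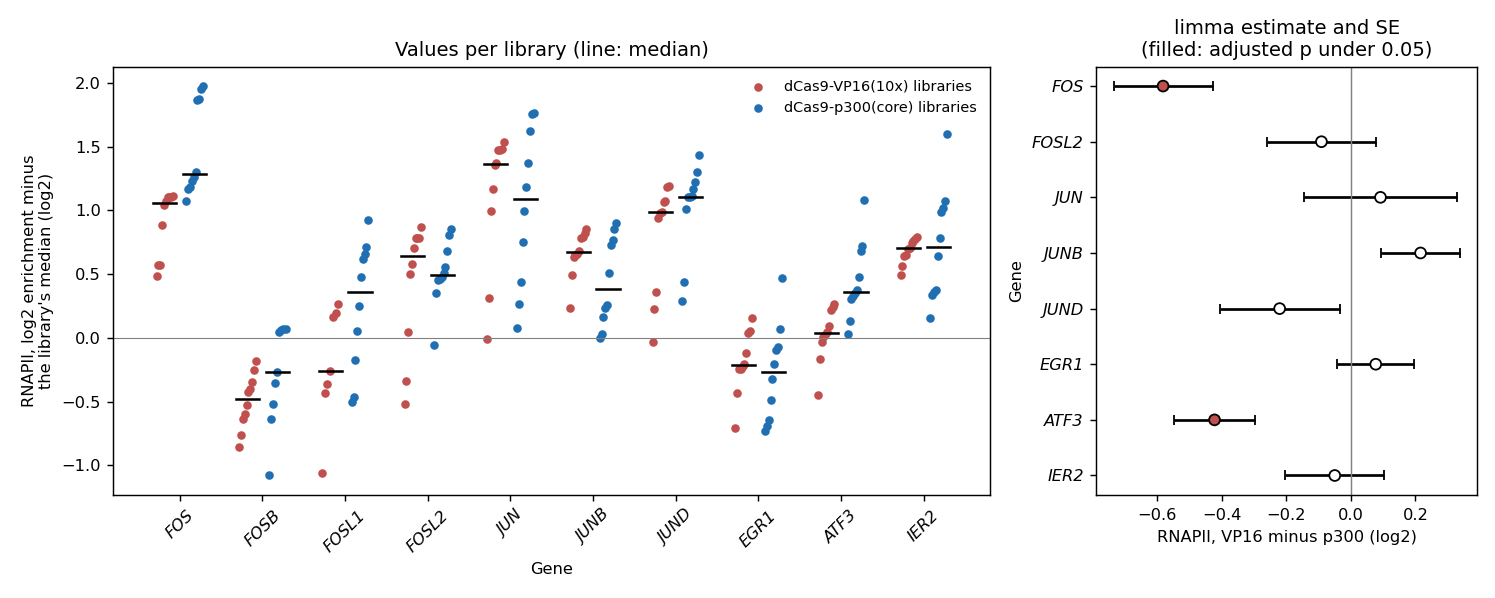
Left, RNAPII enrichment at the promoter (log2, minus the median of the library) in each library with a peak, by gene and fusion, with a line at the median. Right, limma estimates of dCas9-VP16(10x) minus dCas9-p300(core) (log2) with SE bars for the 8 genes with a peak in all 20 libraries; the filled points, FOS at -0.58 and ATF3 at -0.42, passed an adjusted p of 0.05.

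RNAPII also differed among the members in where it lay. At FOS the summit stood 22 to 89 bp downstream of the canonical TSS in all 20 libraries, and at ATF3 from -6 bp to 80 bp downstream. At FOSL2 it stood at a median of 29 bp downstream and at JUN at 31 bp. At IER2 the strongest summit was in the gene, at a median of 2677 bp from its canonical TSS (1220 to 2748). The IER2 median was 1252 bp with dCas9-VP16(10x) and 2679 bp with dCas9-p300(core), with overlapping ranges, and its annotated starts span 1564 bp. At FOSB, whose annotated starts span 3084 bp, the summit stood at a median of 1241 bp. Among the Fos genes, only FOSL1 had a median RNAPII summit upstream of its canonical TSS, at -166 bp. Its annotated starts span 185 bp and reach farther upstream than that summit, so this position depends on the start used. The RNAPII peaks covered a median of 100% of the JUNB gene, 92.1% of JUND and 86.3% of IER2, which are short genes of 1830, 1929 and 4501 bp. They covered 14.8% of FOS and 50.3% of EGR1, of similar length (3405 and 3825 bp). With dCas9-p300(core) the covered share of EGR1 was 32.3 to 70.9% (median 61.8), and with dCas9-VP16(10x) it was 3.06 to 68.1% (median 16.1). FOS was covered over 10.4 to 48.4% (median 22.3) and 6.78 to 15.1% (median 9.96) in the same order. The enrichments of these libraries differed as given above, and their part in the covered length was not tested. A separate RNAPII region, centred at -1443 bp from the FOS TSS (upstream) and 970 bp wide, was called in 8 dCas9-p300(core) and 2 dCas9-VP16(10x) libraries.

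**Figure D3:**
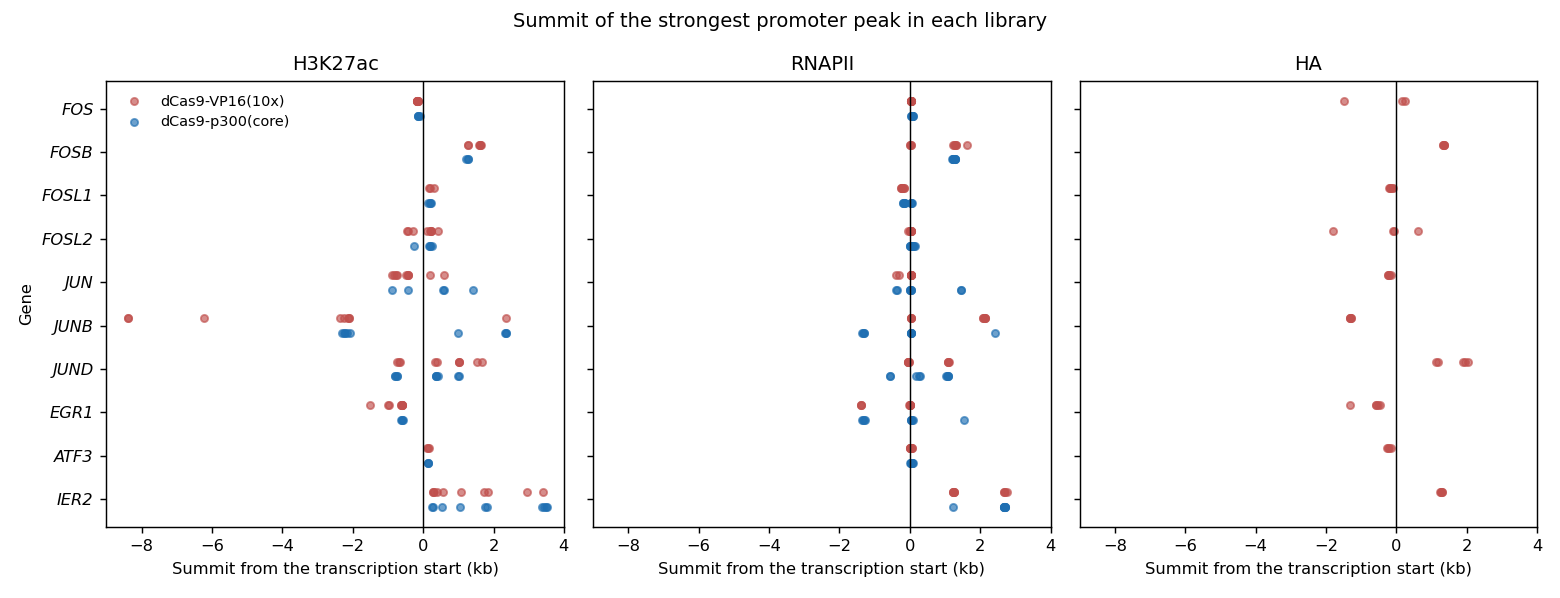
Position of the summit of the strongest promoter peak relative to the canonical TSS (kb, negative is upstream on the strand of the gene) in each library, by gene, antibody and fusion. RNAPII summits at FOS and ATF3 lie within 100 bp of the TSS, whereas those of FOSB and IER2 lie mostly more than 1 kb downstream, and the summits of JUNB H3K27ac, whose peaks are up to 9133 bp wide, reach -8394 bp.

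H3K27ac was found in every library at JUND and IER2 alone among the members. JUNB had a promoter peak in 18 of 20 libraries, JUN in 15, FOSL2 and EGR1 in 14, FOS in 13, FOSB in 10, FOSL1 in 7 and ATF3 in 6. Over all protein-coding genes, 2.41% had an H3K27ac peak in every library and the median gene had one in 9.0 libraries, against 14 for the 10 members. JUND had the highest median percentile among promoters with a peak (96.2), followed by JUNB (87.4), IER2 (87.1), FOS (80.8), JUN (67.1), FOSL2 (63.3) and EGR1 (53.8). Over libraries, the percentile ran from 0.13 to 99.7 for JUND, from 20.5 to 99.6 for JUNB and from 18.6 to 99.0 for IER2. FOSL1 (31.9), ATF3 (28.6) and FOSB (22.5) were in the lower part of the ranking. Their values come from fewer libraries, and the ranges overlapped between neighbours. FOS thus had a peak in fewer libraries than EGR1 but a higher rank where one was listed.

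The number of members with an H3K27ac peak was low in the smallest peak lists, but did not increase steadily with the size of the list and also differed by run. The 3 dCas9-p300(core) libraries with the most peaks (16454, 18661 and 24276) had a peak at 10 of the 10 genes, and the library with 10527 peaks at 8. The 4 dCas9-p300(core) libraries with no run named held 1805 to 4346 peaks and had a peak at 2 or 3 of the genes, namely JUND, IER2 and, in 3 of them, JUNB. The dCas9-VP16(10x) libraries had a peak at 7 to 10 genes, except Pool3 replicate 1, which held 5322 peaks and had a peak at 4. The 5 dCas9-VP16(10x) libraries with no run named held 24890 to 32052 peaks and had a peak at 7 or 8 of the genes. In run A, dCas9-VP16(10x) Pool2 replicate 1, with 19860 peaks, had a peak at 7, whereas the lists of 16462, 20999 and 26861 peaks had one at all 10. EGR1 had a peak in 10 of 10 dCas9-VP16(10x) and 4 of 10 dCas9-p300(core) libraries (Fisher's exact test, two-sided, p = 0.0108, adjusted p = 0.0970). JUN had one in 10 and 5 libraries (exact p = 0.0325, adjusted p = 0.132), FOS in 9 and 4 (exact p = 0.0573, adjusted p = 0.148), FOSL2 in 9 and 5, and FOSB in 7 and 3. None of these differences passed the adjusted threshold, with or without the library of doubtful fusion (without it, adjusted p = 0.0969 for EGR1, 0.131 for JUN and 0.147 for FOS by Fisher's exact test). Of 13671 genes tested, 4 did (0.0293%), and 3372 had an unadjusted p under 0.05. The 4 genes, ATP1A4, PAFAH2, SLC14A2 and ZNF649, are named here after their values were seen, and had a peak in 10 dCas9-VP16(10x) and 0 dCas9-p300(core) libraries. Among the libraries of run A, EGR1 had a peak in 5 of 5 and 4 of 6, JUN in 5 of 5 and 5 of 6, and FOS in 4 of 5 and 4 of 6.

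**Figure D4:**
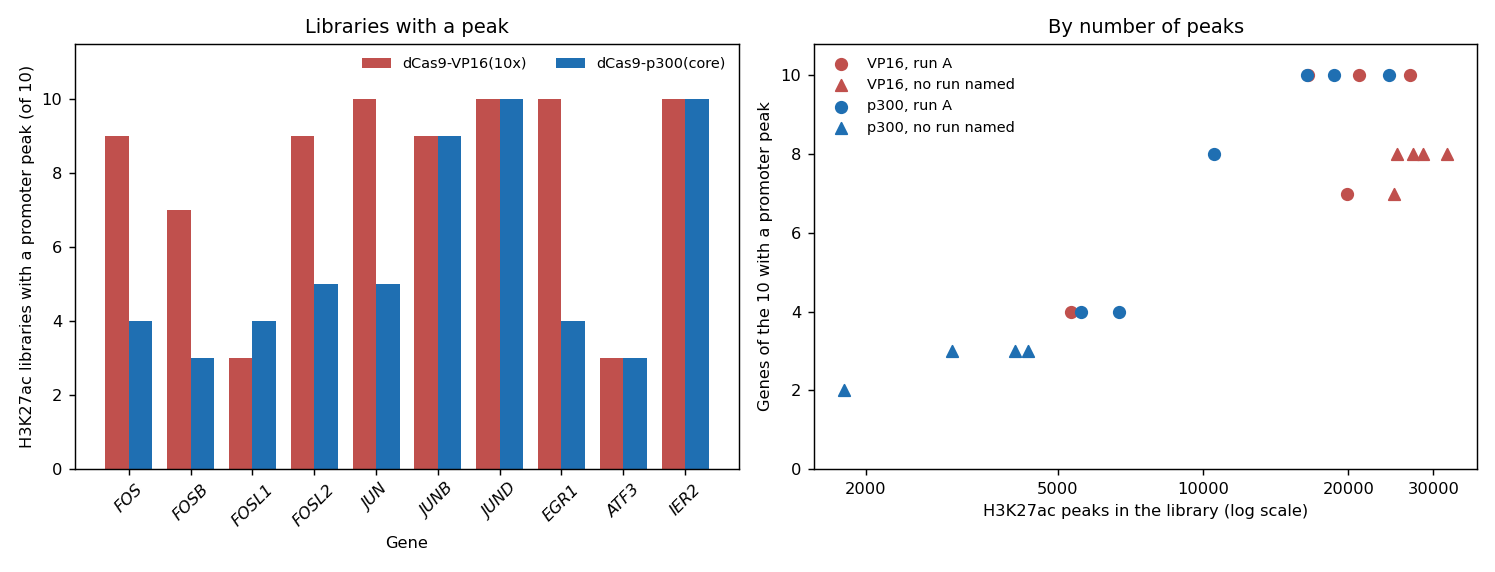
Left, number of the 10 H3K27ac libraries of each fusion with a promoter peak at each gene. Right, number of the 10 genes with a promoter peak against the number of peaks in the library (log scale), by fusion and by whether the peak names carry run A; libraries with 1805 to 4346 peaks had 2 or 3 of the genes, and a dCas9-VP16(10x) and a dCas9-p300(core) library with 16462 and 16454 peaks coincide at 10.

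At JUND, H3K27ac enrichment was 13.9, 34.8 and 170.8 (lowest, median, highest) with dCas9-VP16(10x) and 4.33, 13.4 and 111.0 with dCas9-p300(core). At IER2, it was 21.4, 38.6 and 89.5 against 7.21, 10.9 and 69.2. For both genes the groups overlapped, and the highest value was in dCas9-VP16(10x) IL1RN replicate 1. After centring, the log2 difference between the fusions was 0.22 at JUND (SE 0.35, adjusted p = 0.973 in limma) and 0.09 at IER2 (SE 0.14, adjusted p = 0.973 in limma), and 0 of these 2 members passed. Of the 484 genes with a peak in every library, 0 passed (0.0%), with 24 at an unadjusted p under 0.05. Without centring, 350 of the 484 were called, all higher with dCas9-VP16(10x), including JUND (1.20) and IER2 (1.08). That scale holds a shift of 0.98 (log2) in the median gene between the fusions. Within run A, JUND had -0.11 and IER2 -0.06 (log2, centred), with neither called.

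H3K27ac at FOSL2 spanned a wide range within each fusion. With dCas9-p300(core), FOSL2 had an enrichment of 73.1 and 58.9 in the Adjacent libraries, 71.4 in IL1RN replicate 1, 20.03 in Pool2 replicate 1 and 7.95 in Pool3 replicate 1. With dCas9-VP16(10x), it was 95.1 in IL1RN replicate 1, 56.8 in Pool1 replicate 1, 44.8 in Adjacent replicate 2 and 12.8 in Pool2 replicate 1, all of run A. In the 5 dCas9-VP16(10x) libraries with no run named, it was 8.04 to 12.01. FOSL2 could be fitted only over fewer libraries or with missing values left out. Over libraries with at least 10000 peaks, it was lower with dCas9-VP16(10x) by a log2 difference of -1.01 that did not pass (SE 0.26, adjusted p = 0.0659 in limma). JUNB was 0.56 in that fit (SE 0.22, adjusted p = 0.1003 in limma), EGR1 0.37, JUN -0.32 and FOS 0.09, none of them passing. The 5 libraries with no run named in that fit are all of dCas9-VP16(10x).

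FOSL1 and ATF3 had H3K27ac peaks in 7 and 6 of the 11 libraries of run A, and in 0 of the 9 libraries with no run named. For FOSL1, the enrichment was 10.2, 13.7 and 24.1 in the 3 dCas9-VP16(10x) libraries with a peak, and 12.4, 20.2, 21.8 and 32.0 in the 4 dCas9-p300(core) libraries. Those values overlapped, but the centred values (log2) did not, running from -2.23 to -1.84 with dCas9-VP16(10x) and from -1.39 to -0.38 with dCas9-p300(core). FOSL1 was 1 of 8 members with centred groups apart in this way, against 3.27% of 10408 genes with a peak in at least 3 libraries of each fusion but not in all. For ATF3, the enrichment was 15.7, 23.8 and 25.8 with dCas9-VP16(10x) and 14.4, 20.6 and 23.8 with dCas9-p300(core), and the groups overlapped. FOSB ran from 9.95 to 18.5 in 7 libraries and from 12.9 to 20.2 in 3.

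The position of H3K27ac also differed between members. At FOS, the summit lay at -180 to -97 bp, upstream of the TSS in all 13 libraries, between the CArG box and the TATAA match printed above, whereas RNAPII lay downstream. At EGR1, it lay at a median of -608 bp (upstream), farther than its 4 CArG boxes. At JUN it ranged from -881 bp to 1427 bp downstream, and at FOSB it lay 1208 to 1635 bp downstream. At JUNB, merged peaks formed a region of 15340 bp that also holds the start of HOOK2, and the window of IER2 holds the start of STX10, so those peaks cannot be assigned to 1 gene. A second H3K27ac region at FOS, centred at -1436 bp and 997 bp wide, was called in 7 libraries. Near JUND, a region centred at -6195 bp was called in 10 dCas9-VP16(10x) and 3 dCas9-p300(core) libraries, and 1 centred at -10764 bp in 7 and 1. A region centred at -49993 bp from the canonical ATF3 start, outside its promoter windows, carried H3K27ac in 12 libraries, against 6 for its promoter, and RNAPII in all 20. The annotated ATF3 starts span 49844 bp, and this region lies within 10 kb of the first of them.

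With HA, the fusion itself was mapped. The dCas9-VP16(10x) lists had peaks at 8 to 10 of the members, and the dCas9-p300(core) lists, which held 146 and 141 peaks in all, at 0. HA promoter peaks were found for 21.3 to 69.7% of protein-coding genes in the dCas9-VP16(10x) lists, and for 0.0448 and 0.478% in those of dCas9-p300(core). The pair of dCas9-VP16(10x) ERBS lists (6179 and 30736 peaks) was counted as 1 library, since of their columns in the deposited signal table only 1 is marked for duplicate removal and both may hold the same sample. In this count, and with both as separate libraries, 7 members had an HA peak in every dCas9-VP16(10x) library, which are FOSB, FOSL1, JUN, JUNB, JUND, EGR1 and IER2. Of all protein-coding genes, 18.6% had one in every such library, or 15.2% with the pair as separate libraries. FOS lacked a peak in 1 ERBS list and Adjacent replicate 1, FOSL2 in Adjacent replicate 1 and ATF3 in IL1RN. With peaks of at least 20 in -log10 p, 3 members remained, and the share of all genes at that threshold was not computed.

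FOSL1 had the highest HA enrichment of the members in 4 of the 5 lists, with 56.5 and 16.5 in the Adjacent replicates 2 and 1, 23.7 in IL1RN and 10.5 in the smaller ERBS list. In the larger ERBS list, FOSL1 had 32.6, and IER2 was the highest at 45.7. FOSL1 stood at percentiles of 99.9, 99.0, 99.9, 85.2 and 92.2 among promoters with an HA peak in these lists. In the smaller ERBS list, JUND (10.3) and JUN (10.1) lay close to FOSL1. JUNB had 35.7, 11.6, 13.1, 7.91 and 36.2 in the same order, and was second to FOSL1 in the Adjacent lists only. FOS, in the 3 lists with a peak, had 19.6, 7.23 and 17.4, for Adjacent replicate 2, IL1RN and the larger ERBS list. The HA summit at FOSL1 lay at -225 to -111 bp from its TSS and that at JUN at -244 to -169 bp. At JUNB it lay at -1332 to -1287 bp, and at IER2 1248 to 1303 bp downstream. No HA library without a fusion was analysed here, and the HA values are given as a description, with no test.

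The gRNA pools were compared with the IL1RN control within each fusion, to see whether occupancy at these non-targeted genes changed with the pool. For RNAPII, none of the 8 members passed in any of the 8 comparisons (limma, smallest adjusted p = 0.994), and 0.0% of all 70808 gene-by-pool values passed. Their log2 differences ran from -0.76 (FOSL2, dCas9-VP16(10x) Pool3, SE 0.38) to 0.45 (JUND, dCas9-p300(core) Pool3, SE 0.42). With dCas9-VP16(10x), both IL1RN libraries carried run B, whereas replicate 2 of Pool1, Pool2 and Pool3 carried no run. Pool and run therefore cannot be fully told apart there. FOSL2 had 0.50 and -0.52 (centred log2) in Pool3 replicates 1 and 2, against 0.71 and 0.78 in IL1RN. EGR1 in the dCas9-p300(core) Adjacent pool, at -0.65 (SE 0.27, unadjusted p = 0.0252 in limma), was the 1 of 64 member values with an unadjusted p under 0.05. For H3K27ac, JUND and IER2 ran from -0.67 to 0.87 (smallest adjusted p = 0.885 in limma), with 0 of 16 values at an unadjusted p under 0.05. The highest was JUND in the dCas9-p300(core) Adjacent pool, whose IL1RN replicates 1 and 2 had 0.96 and -1.34 (centred log2). That IL1RN replicate 2 carried no run and held 4088 peaks, whereas both Adjacent libraries carried run A. With 2 libraries per group, a value that did not pass does not show that occupancy was unchanged. Of all 3872 gene-by-pool values, 3 passed (0.0775%), which are ESYT1, RPL41 and ZC3H10 in dCas9-VP16(10x) Pool3, named after their values were seen. They had the same log2 difference of 1.43, so they may not be 3 independent calls, which was not tested. The difference between fusions in these pool effects was also tested, and none of the members passed (smallest adjusted p = 0.924 for RNAPII and 0.996 for H3K27ac in limma).

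Wider lists of the same pathway were read in the same RNAPII comparison of the fusions, after centring. Over all genes in this comparison, 18.4% passed in either direction and 6.82% were lower, and the lists were not tested against these shares. Without centring, the difference of every gene is lower by the same shift, so that ATF7, MRTFB and ZFP36L1 below turn to lower with dCas9-VP16(10x). Of 22 other bZIP factors, 15 were fitted, and 1 was higher and 2 lower with dCas9-VP16(10x), with a median log2 difference of 0.05 against 0.00 over all genes. MAFF and MAFK, small Maf proteins that lack an activation domain, were lower by -0.92 (SE 0.12, adjusted p = 0.00108 in limma) and -0.49 (SE 0.16), and ATF7, an ATF2 relative, was higher by 0.53 (SE 0.16). Of 24 other immediate early genes, 17 were fitted, 0 were higher and 2 lower, with a median of -0.11. These were NR4A3, an orphan nuclear receptor (-0.48, SE 0.14), and CSRNP1 (-0.51, SE 0.17), while CCN1, a matricellular protein gene, had -0.77 (SE 0.27, adjusted p = 0.0563 in limma). Of 19 upstream regulators, 13 were fitted, 1 was higher and 2 lower, with a median of -0.02. MRTFB, a coactivator of serum response factor, was higher by 0.44 (SE 0.12), its paralog MRTFA lower by -0.41 (SE 0.13), and MAP2K4, a kinase of the JNK pathway, lower by -0.45 (SE 0.13). Of 15 feedback inhibitors, 11 were fitted, 0 were higher and 1 was lower, the phosphatase gene DUSP2 (-0.52, SE 0.17), with a median of -0.04. ZFP36L1, an mRNA decay factor, had 0.34 (SE 0.12) and SPRED2, an inhibitor of Ras signalling, -0.34 (SE 0.13), and neither passed. For H3K27ac, the 9 genes of these lists that were fitted did not pass, and DDIT3 (-0.26, SE 0.16), ZFP36L1 (-0.35, SE 0.15), CCN1 (-0.10, SE 0.20) and NAB2, a corepressor of EGR1 (0.19, SE 0.15), were among them.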

How the data were processed

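ChIP-seq peak lists of 47 libraries (20 H3K27ac, 20 RNAPII and 7 HA) were used as deposited. Per the labels, the processing notes name Bowtie 1.1.2, SAMtools, bedtools and MACS2 2.1.0.20140616 on hg19, and the authors removed duplicate reads. The deposited lists give a fold enrichment, a ratio of the peak over background, and the -log10 of the p-value, which is at least 10.0 in every list. Read depth is not given in the lists, so the precision of an enrichment is known only from the spread between libraries. A table of normalized signal in targeted regions holds no member and was not used. All samples were grouped by antibody, fusion and gRNA pool from their labels, which do not say whether replicates were separate transfections, so p-values measure only the spread between these libraries.

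The strongest peak within 2 kb of any GENCODE start (v44 lifted to GRCh37, the same assembly as hg19) was taken for each gene on chromosomes 1 to 22 and X. Log2 enrichment was centred on the median over genes with a peak in every library of the antibody, and limma 3.58.1 in R 4.3.3 was fitted with 1 mean per fusion and gRNA pool. Adjustment (Benjamini-Hochberg) ran over all genes fitted, with a threshold of 0.05. Presence of peaks was compared by Fisher's exact test in SciPy 1.17.1. Both tests were checked on simulated data. All 10 members are named, and of each further list at most the 3 genes with the smallest p in each antibody. The rule for genes most similar to FOS was not applied, since FOS lacked H3K27ac in some libraries. The members and lists were chosen with earlier results of these data known. The alternatives were other scalings, windows, thresholds and summaries of peaks, a replicate block and leaving out each library. Blocks by run and fits without libraries of few peaks or of no named run, by percentile and without the library of doubtful fusion were chosen after seeing the data. The full list of markers of other cells is not reported here.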

Additional observations from a re-analysis of the deposited data

Results flagged for a closer look

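A library stood far from the others of its fusion in 2 of the 36 sets of 4 to 10 libraries tested, at the 95% critical value of Dixon's test, where chance alone gives about 1 in 20. H3K27ac at FOS in dCas9-VP16(10x) Pool2 replicate 1 had a centred log2 value of -1.48 (enrichment 9.25), with the next of the 9 libraries at -0.70. H3K27ac at FOSL2 in dCas9-p300(core) Pool3 replicate 1 had a centred log2 value of -0.53 (enrichment 7.95), with the next of the 5 libraries at 0.21. The first library held 19860 peaks and the second 5582.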

How the results depend on the processing

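Fits on peak values describe only genes with a peak in the libraries fitted, which is 484 genes for H3K27ac, so that for 8 members a difference in H3K27ac level was not detectable by the fit over all libraries. The number of peaks per list limits what absence means. For H3K27ac between the fusions, 0 genes passed, against 350 without centring, 21 with the sum of peaks and 40 by percentile, and 0 to 0 when libraries were left out. For RNAPII, 1625 genes passed, against 6653 without centring, 3229 with missing values left out, 2881 without libraries of no run, 3200 without libraries under 20000 peaks, and 809 to 2895 when libraries were left out. The count moved by over 1.5 times without dCas9-p300(core) Adjacent replicate 1 (870), IL1RN replicate 1 (2895), Pool1 replicate 2 (990), Pool2 replicate 2 (809) or Pool3 replicate 2 (947), or, among dCas9-VP16(10x) libraries, IL1RN replicate 1 (1041), IL1RN replicate 2 (993), Pool1 replicate 2 (1012) or Adjacent replicate 2 (979). Without centring, JUN (-0.63), JUNB (-0.51) and EGR1 (-0.65) turned to lower RNAPII with dCas9-VP16(10x) and passed. The ATF3 call was also lost with the sum of peaks (-0.57, adjusted p = 0.102 in limma).

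For the gRNA pools, the 3 H3K27ac calls became 0 without centring, with quantile normalization, a window of 1 kb, a -log10 p of at least 20 or the sum of peaks, and 0 to 4 when libraries were left out. The RNAPII calls were 0, against 4 with the sum of peaks and 0 to 308 when libraries were left out. The 308 calls arose without dCas9-p300(core) IL1RN replicate 2, where IER2 in the Adjacent pool passed (-1.24, adjusted p = 0.0423 in limma), and that group then held 1 library, assumed to vary like the others. Without dCas9-p300(core) Pool3 replicate 1, there was 1 call. H3K27ac presence calls (4) became 0 with a window of 1 kb, with the summit in the window, without libraries under 10000 peaks and within run A, and RNAPII presence calls (177) became 845 without libraries under 20000 peaks. The 7 members with HA in every dCas9-VP16(10x) library became 3 at a -log10 p of at least 20, where the share of all genes was not computed. The causes of these shifts were not tested.

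Replicate numbers are shared between groups but no label ties them to a batch, and same-numbered libraries correlated in their deviations over genes by -0.49 to 0.91 for H3K27ac and -0.39 to 0.71 for RNAPII. With the replicate number as a block, the replicate block fit gave 1816 RNAPII genes and 0 H3K27ac genes between the fusions, and FOS and ATF3 kept their calls.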
